A study of Mus musculus with 22 samples.

Results

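The genes of the cytosolic ribosomal proteins were followed in mouse back skin with 48 array probe sets for 34 genes, out of 12422 probe sets for 8251 genes in all. A probe set, a group of short probes against one transcript, was taken where the platform annotation pairs it with exactly 1 gene whose symbol starts with Rpl (large subunit) or Rps (small subunit) followed by a digit or p. Kinases named Rps6k and pseudogene symbols were left out. The 34 genes are 17 of the large and 17 of the small subunit. Another 39 probe sets are paired with a ribosomal protein gene and further genes at once, so they are given only as counts. Of the 48 probe sets, 28 for 26 genes passed a filter on dim signal and were tested (mean log2 signal of 7.67 or more, a signal of 203). Names of 21 of these 28 end in the plain suffix _at. The other 7 have _f (Rpl41, an Rpl10a and an Rps28 probe set), _s (Rpl7, Rps4l) or _r (Rps13, Rps24). How far these 7 report their own gene alone is less certain.

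The arrays compared K14-DN-Clim transgenic skin, labelled DN-CLIM, with skin of wild-type (WT) littermates, and the study asks how blocking the CLIM cofactors alters expression as hair follicles develop. The transgene encodes a CLIM (Ldb) protein, a nuclear cofactor of LIM domain factors, in a version that blocks the normal one. Its keratin 14 promoter is active in basal keratinocytes, which are only some of the cells in a piece of back skin. All mice were CB6F1. Each genotype had 5 arrays of postnatal day 6 (P6), 3 of P14 and 3 of P23. Follicles are growing at P6 and P14 and are in their first resting phase, telogen, at P23. Whether each array holds RNA of its own mouse is not given, so p-values measure the spread between arrays, part of which may be technical.

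Ribosomal proteins assemble with ribosomal RNA into the small subunit, which decodes the messenger, and the large subunit, which forms the peptide bond. Their messengers are among the most abundant in nearly every cell and usually begin with a run of pyrimidines, the 5' TOP tract, through which mTOR signalling controls their translation. In skin, demand for ribosomes is high in the dividing hair matrix of a growing follicle, and mouse mutations in Rps19 and Rps20 darken the skin.

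Start regions were read from RefSeq (build GRCm38.p6), which held 27 of the 34 genes. The windows run from 40 bases before to 20 bases after the annotated start, and are shown for genes whose values are described below, some with and some without a match. Capitals mark CTTTCC, a pyrimidine run, or CTTCCG, the core of an ETS factor site, on either strand (read on the other strand they are GGAAAG and CGGAAG).
Rps10, chr17:27635225-27635284, minus strand: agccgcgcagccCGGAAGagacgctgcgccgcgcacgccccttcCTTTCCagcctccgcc
Rps18, chr17:33955646-33955705, minus strand: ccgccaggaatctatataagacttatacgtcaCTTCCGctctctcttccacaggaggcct
Rps7, chr12:28635934-28635993, minus strand: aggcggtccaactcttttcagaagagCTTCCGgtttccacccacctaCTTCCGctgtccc
Rps27, chr3:90213629-90213688, minus strand: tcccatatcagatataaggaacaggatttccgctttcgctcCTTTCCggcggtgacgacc
Rpl13a, chr7:45128726-45128785, minus strand: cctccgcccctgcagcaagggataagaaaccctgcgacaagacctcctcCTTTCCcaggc
Rpl22, chr4:152325686-152325745, plus strand: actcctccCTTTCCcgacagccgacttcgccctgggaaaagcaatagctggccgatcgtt
Rpl39l, chr16:10170188-10170247, plus strand: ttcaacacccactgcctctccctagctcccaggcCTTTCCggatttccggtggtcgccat
Rplp0, chr5:115559427-115559486, plus strand: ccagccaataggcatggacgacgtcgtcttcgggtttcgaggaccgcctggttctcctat
Rps13, chr7:116334171-116334230, minus strand: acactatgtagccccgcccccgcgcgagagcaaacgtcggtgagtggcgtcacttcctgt
Rpl22 has a further annotated start whose window holds neither run.

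From 20 bases before to 50 after the start, CTTTCC stood in 11 of the 27 genes (40.7%), against 6.8% of 17491 protein-coding genes. CTTCCG stood in 10 of the 27 (37%), against 10.2%. At least 1 of the runs was present in 19 of the 27 (70.4%), against 16.2%, and 2 held both (the runs can overlap by 1 letter). Matches farther upstream in the windows above are not in these counts. Over the whole 300 bases of each entry, CTTTCC stood in 59.3% of the member genes, against 28.8% of the protein-coding genes, and CTTCCG in 66.7%, against 23.5%. These 2 runs were chosen after the shares of 15 letter runs had been seen, in 2 windows and with 2 ways of counting strands, so the shares describe these genes and test nothing. A match is not shown to be a bound or transcribed site.

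The signals are deposited MAS5 intensities, each array scaled to one trimmed mean, used here as log2. On that scale the P23 arrays had a lower bright end than the others. Their brightest probe set reached 22034 to 25990 on the 6 P23 arrays, against 41700 to 78418 on the 16 P6 and P14 arrays. Of the 28 tested ribosomal protein probe sets 17 lie above percentile 99 of signal. The age comparisons of the 28 are therefore given as deposited and after quantile normalization, which gives every array the same distribution. DN-CLIM P6 replicate 5 correlated least with its own group (mean r = 0.923, against 0.954 to 0.982 for the other 21 arrays). Hair shaft genes, which define growing follicles, were far lower at P23. The RNA integrity measure, log2 of the 3' over the 5' actin control, was 0.04 to 0.31 at P23 and 0.11 to 0.56 on the other arrays. The log2 of the summed hair shaft signal was 11.80 to 11.82 in DN-CLIM P23 and 11.68 to 12.01 in WT P23, against 18.55 to 18.85 in DN-CLIM P14 and 18.59 to 18.80 in WT P14.

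In telogen skin most ribosomal protein transcripts were lower on the deposited scale, in both genotypes. In DN-CLIM skin 21 of the 28 probe sets fell from P14 to P23, against 27.2% of all 6211 tested, and 3 rose, against 27.1% (limma, Benjamini-Hochberg adjusted over all 6211, threshold 0.05). In WT skin 22 fell, against 27.1% of all tested, and 2 rose, against 27%. The median log2 change of the 28 was -0.82 in DN-CLIM and -0.77 in WT, beside 0.00 for all tested in each. Of the 33 tested probe sets shared with further genes 26 fell in DN-CLIM and 25 in WT, and none rose. After quantile normalization 11 of the 33 fell and 2 rose in DN-CLIM, and 6 fell and 3 rose in WT. Ribosomal protein probe sets held 2.75 to 2.97% of the total signal on the P23 arrays and 4.28 to 5.37% on the P6 and P14 arrays.

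Most equally bright probe sets of other genes were lower as well. Among probe sets with a mean log2 signal of 14 or more, the median change from P14 to P23 in DN-CLIM was -1.02 for the 12 ribosomal protein probe sets and -1.0 for the 21 others. In WT it was -1.04 and -0.97. Between 13 and 14 the medians were -0.64 (5 probe sets) and -0.59 (79 others) in DN-CLIM, and -0.72 and -0.63 in WT. All ribosomal protein probe sets in both bands were called lower in each genotype. Of the 21 others, 17 were called lower and 3 higher in each genotype. Of the 79 others, 54 were called lower and 11 higher in DN-CLIM, and 55 and 13 in WT. After quantile normalization the median of the 28 was -0.09 in DN-CLIM and -0.11 in WT. Then 9 fell and 4 rose in DN-CLIM (29% and 26.8% of all tested), and 8 fell and 5 rose in WT (28.9% and 25.6%). Whether ribosomal protein messengers fell or the bright end of the P23 arrays was compressed cannot be told apart from these values. Quantile normalization would itself remove a fall shared by the brightest transcripts. In bulk skin, fewer cells of a type and less RNA per cell cannot be told apart either.

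**Figure D1:**
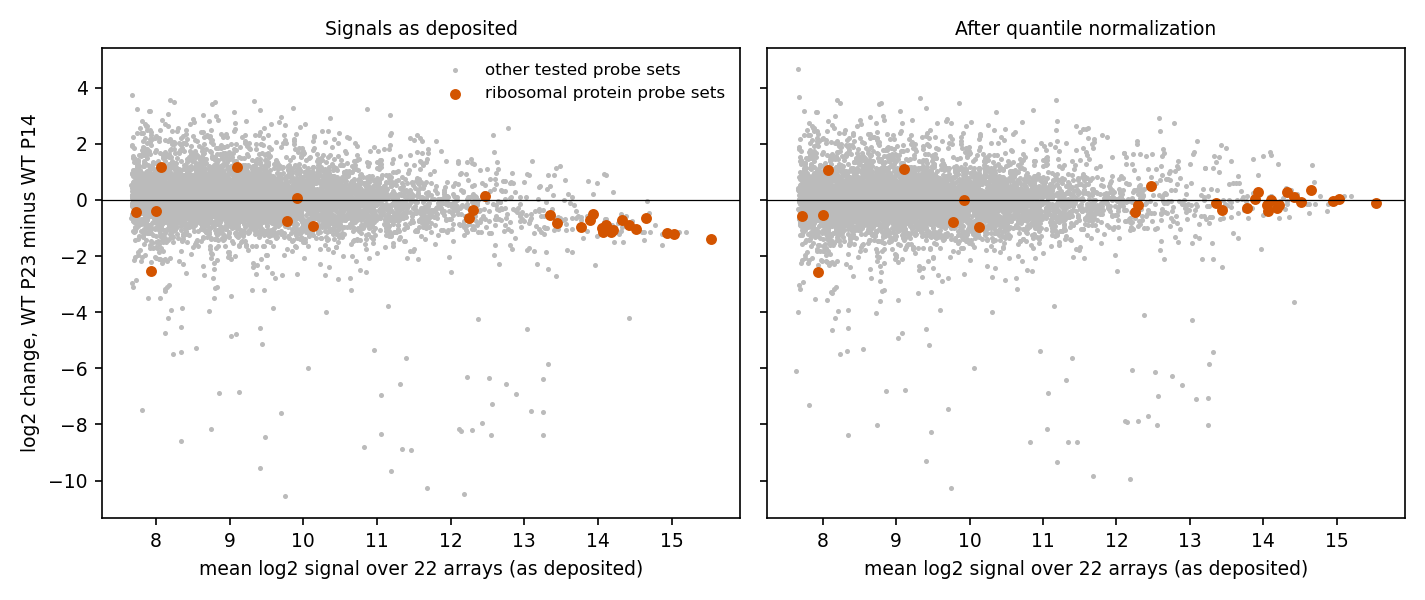
Log2 change from P14 to P23 in WT skin (y axis) against mean log2 signal (x axis), as deposited on the left and after quantile normalization on the right; grey points are the other tested probe sets and orange points the 28 ribosomal protein probe sets. On the left most bright probe sets of both kinds lie below 0, with medians of -1.04 and -0.97 at a signal of 14 or more. On the right both medians lie near 0.

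Ribosomal proteins were also set against bright probe sets of other genes on the same array, and their excess was smallest at P23. The median log2 signal of the 17 ribosomal protein probe sets with a mean of 13 or more exceeded that of 100 other such probe sets by 0.35 ± 0.08 in DN-CLIM P23 and 0.42 ± 0.06 in WT P23 (SD, n = 3 each). At P14 it exceeded it by 0.73 ± 0.04 in DN-CLIM and 0.75 ± 0.05 in WT (SD, n = 3 each). At P6 the excess was 0.68 ± 0.08 in DN-CLIM and 0.62 ± 0.08 in WT (SD, n = 5 each). All 6 P23 arrays, at 0.28 to 0.49, lay below all 16 others, at 0.50 to 0.79. No test was made of this score, and the range of signals within the 2 sets was not matched. Of the 17 probe sets 12 had a mean of 14 or more, against 21 of the 100 others. From P14 to P23 the median fall was larger in that band than between 13 and 14, in both sets. The score therefore cannot tell a fall particular to ribosomal proteins from one that grows with signal. At 14 or more the median changes of the 2 sets were -1.02 and -1.0 in DN-CLIM, and -1.04 and -0.97 in WT.

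**Figure D2:**
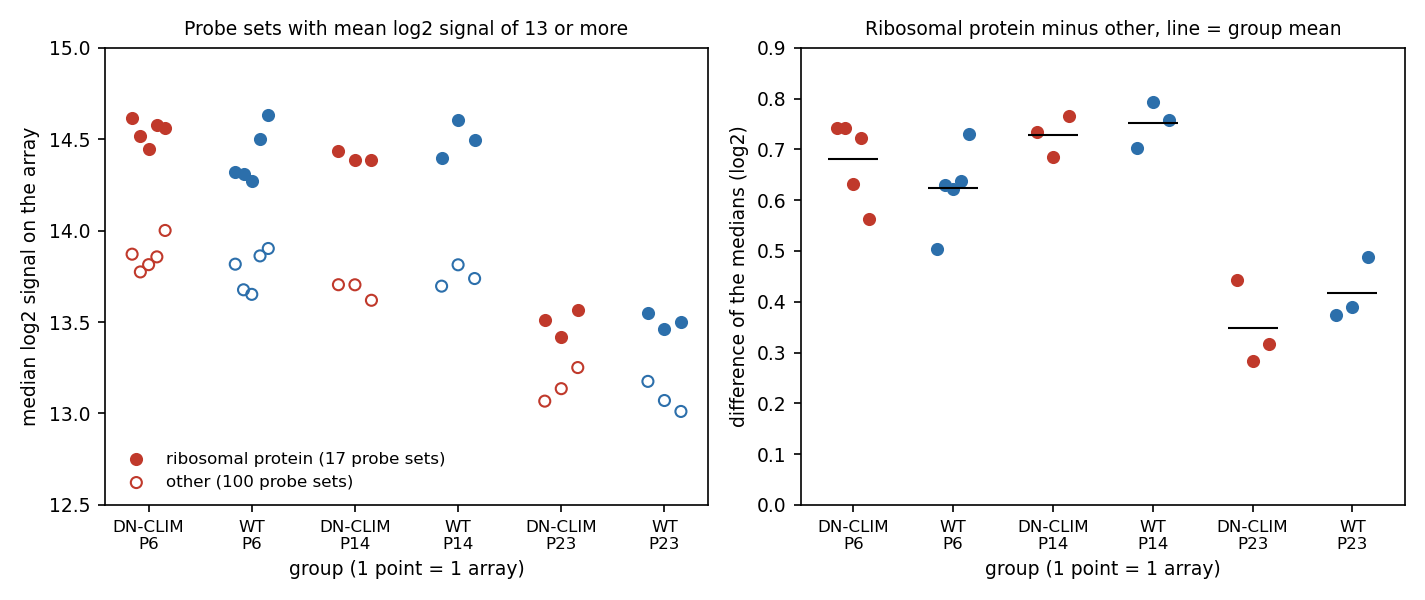
Left, median log2 signal per array of 17 ribosomal protein (filled) and 100 other (open) probe sets with a mean log2 signal of 13 or more, by group; right, their difference with the group mean as a line (DN-CLIM red, WT blue). Both sets are lower at P23, and the difference is 0.28 to 0.49 there against 0.50 to 0.79 on the other arrays.

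Some members were called the same way on both scales. From P14 to P23 these were, in DN-CLIM, 8 that fell (Rpl13a, Rpl19, Rps10, Rps13, Rps29, Rps3, Rps4l and Rps7) and 3 that rose (Rpl22, Rpl39l and Rps19). In WT they were 6 that fell (Rpl10a, Rpl13a, Rpl8, Rps10, Rps13 and Rps4l) and 2 that rose (Rpl22 and Rpl39l). Called in opposite directions by the 2 scales were Rps4x in both genotypes and both Rps28 probe sets in WT. Shares of all tested probe sets called alike on both scales were not counted, so these counts have no background to be read against.

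**Figure D3:**
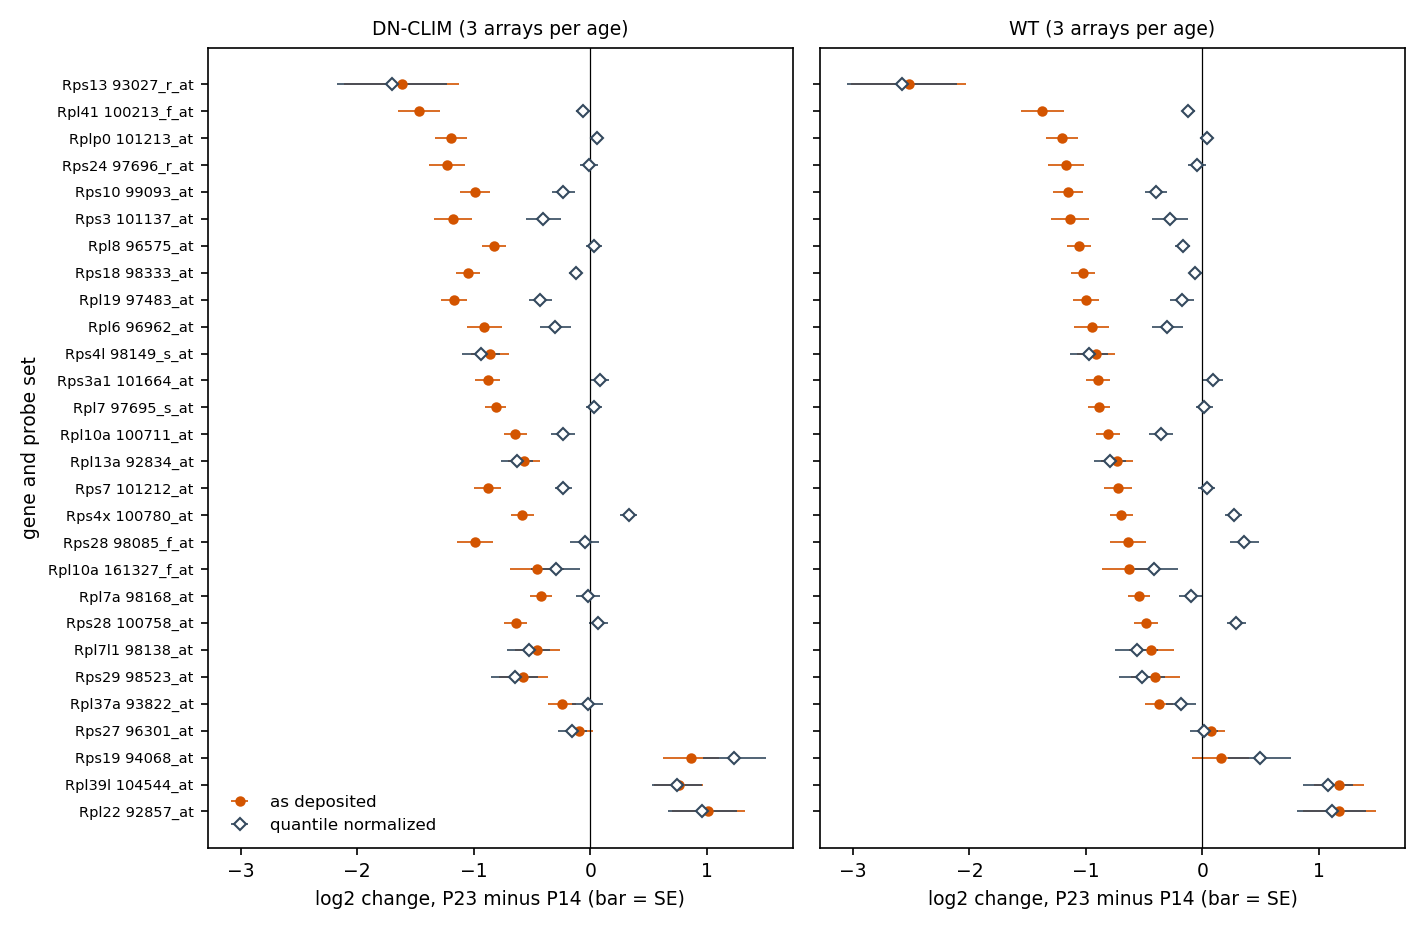
Log2 change from P14 to P23 with its SE (x axis) for each of the 28 tested probe sets (y axis), in DN-CLIM on the left and WT on the right, as deposited (orange circles) and after quantile normalization (open diamonds). The circles of bright genes such as Rpl41 and Rplp0 lie below -1 and their diamonds near 0, while Rps13, Rps4l, Rpl13a, Rpl22 and Rpl39l keep their place on both scales.

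Of the large subunit, Rpl22 rose at P23. Rpl22 encodes an RNA-binding protein that the ribosome can do without and that T cell development needs in the mouse. Its log2 signal was 9.64, 9.90 and 9.93 in DN-CLIM P23, against 8.72, 8.85 and 8.84 in DN-CLIM P14. WT skin had 9.71, 9.47 and 10.15 at P23, against 8.63, 8.80 and 8.38 at P14. Every P23 array lay above every P14 array of its genotype. The log2 change was 1.01 in DN-CLIM (SE 0.31, adjusted p = 0.00881 in limma) and 1.18 in WT (SE 0.31, adjusted p = 0.00299). After quantile normalization it was 0.96 and 1.11. The other Rpl22 probe set was too dim to test.

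Rpl39l, a paralog of Rpl39 known for its expression in the mouse testis, was lowest at P14. In DN-CLIM its log2 signals were 8.64, 8.24, 7.93, 8.45 and 8.85 at P6, then 7.77, 7.03 and 7.34 at P14, and 8.07, 8.08 and 8.27 at P23. In WT they were 8.58, 8.41, 8.43, 8.47 and 8.45 at P6, then 7.32, 7.11 and 7.03 at P14, and 8.04, 8.53 and 8.41 at P23. In both genotypes the P14 arrays lay below all arrays of the other ages. The change from P6 to P14 was -1.04 in DN-CLIM and -1.32 in WT (SE 0.19 each, adjusted p = 0.000368 and 2.52e-05 in limma). That from P14 to P23 was 0.76 and 1.17 (SE 0.21 each, adjusted p = 0.00453 and 7.28e-05). After quantile normalization all 4 passed too, with -1.13 and -1.29 from P6 to P14 and 0.74 and 1.08 from P14 to P23. Its parent gene Rpl39 was too dim to test.

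Rpl13a, a large-subunit protein often used as a reference gene, fell from P14 to P23 on both scales. Its log2 signal was 9.34, 9.33 and 9.62 in DN-CLIM P23, against 9.87, 9.96 and 10.16 in DN-CLIM P14. WT arrays read 9.42, 9.73 and 9.59 at P23, against 10.19, 10.35 and 10.40 at P14. The P23 arrays lay below the P14 arrays of each genotype. At P6 the mean was 9.77 in DN-CLIM and 9.65 in WT, and in WT the P14 arrays stood above those of both other ages. This probe set is dimmer than most of the members tested. The log2 change was -0.57 in DN-CLIM and -0.73 in WT (SE 0.14 each, adjusted p = 0.00137 and 0.000108 in limma), and -0.63 and -0.80 after quantile normalization.

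Rplp0, the stalk protein that holds the acidic P proteins and another common reference gene, depended on the scale. As deposited its log2 signal was 14.12, 14.12 and 14.20 in DN-CLIM P23, against 15.51, 15.28 and 15.24 in DN-CLIM P14. In WT the signal was 14.30, 14.29 and 14.11 at P23, against 15.37, 15.48 and 15.46 at P14. The groups did not overlap, and the log2 change was -1.20 in DN-CLIM and -1.21 in WT (SE 0.13 each, adjusted p = 1.5e-07 and 1.24e-07 in limma). After quantile normalization it was 0.05 and 0.03, past no threshold (adjusted p = 0.41 and 0.605). Rpl41, which encodes a very short basic peptide and was the brightest probe set on 17 of the 22 arrays, went likewise. Its log2 change was -1.47 in DN-CLIM and -1.37 in WT as deposited, and -0.06 and -0.12 after quantile normalization, which fixes the value of the brightest probe set.

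Of the other large-subunit genes, Rpl8, a protein near the peptidyl transferase centre, changed by -0.83 in DN-CLIM and -1.06 in WT as deposited, and by 0.03 and -0.17 after quantile normalization. Rpl19, which takes part in a bridge between the subunits, changed by -1.17 and -1.0 as deposited, and by -0.43 and -0.18 after quantile normalization. Rpl10a, of the L1 stalk, has 2 tested probe sets. One changed by -0.64 in DN-CLIM and -0.81 in WT, and both passed. The other differed by -0.46 in DN-CLIM, with adjusted p = 0.104 in limma, and fell by 0.63 in WT. After quantile normalization the first differed by -0.24 in DN-CLIM (adjusted p = 0.0595) and fell by 0.35 in WT, and the other, at -0.30 and -0.42, passed in neither (adjusted p = 0.243 and 0.1). Rpl6, Rpl7 and Rpl7a, proteins of the body of the large subunit, passed as deposited with changes of -0.91, -0.81 and -0.42 in DN-CLIM and -0.95, -0.89 and -0.54 in WT, and none of them passed after quantile normalization. Rpl37a, a zinc-binding protein, differed by -0.24 in DN-CLIM (adjusted p = 0.0977 in limma) and fell by 0.37 in WT (adjusted p = 0.0125) as deposited. After quantile normalization it passed in neither genotype. Its means were then 12.41 at P14 and 12.39 at P23 in DN-CLIM, and 12.31 and 12.13 in WT. Rpl7l1, a paralog of Rpl7, passed after quantile normalization alone, with -0.53 in DN-CLIM and -0.57 in WT, against -0.46 and -0.44 as deposited (adjusted p = 0.0501 and 0.059).

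Of the small subunit, Rps13 had the greatest fall in each genotype on the deposited scale. Its log2 signal was 6.38, 6.65 and 7.01 in DN-CLIM P23, against 7.67, 9.15 and 8.08 in DN-CLIM P14. In WT skin it was 7.53, 6.65 and 5.95 at P23, against 8.96, 9.17 and 9.56 at P14. The groups did not overlap, and the arrays within a group spread widely. The log2 change was -1.62 in DN-CLIM and -2.52 in WT (SE 0.49 each, adjusted p = 0.00823 and 0.000173 in limma). Without DN-CLIM P14 replicate 2 the DN-CLIM change was -1.20 with adjusted p = 0.0643. This probe set is dim and of a type (suffix _r) whose probes were chosen under relaxed rules.

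Rps4l, an autosomal relative of the X-linked Rps4x, went down with each age. In DN-CLIM its log2 signal was 10.76, 10.71, 10.86, 10.56 and 11.39 at P6, then 10.16, 10.32 and 10.08 at P14, and 9.55, 9.22 and 9.20 at P23. In WT the log2 signal was 10.58, 10.68, 10.66, 10.50 and 10.71 at P6, then 10.08, 9.63 and 10.06 at P14, and 8.89, 9.04 and 9.11 at P23. No age overlapped the next in either genotype. From P14 to P23 the log2 change was -0.86 in DN-CLIM and -0.91 in WT (SE 0.16 each, adjusted p = 0.000126 and 6.75e-05 in limma), and -0.94 and -0.97 after quantile normalization. The signal of this probe set may include Rps4x, since its suffix (_s) marks probes shared by similar transcripts. Rps4x itself changed by -0.58 and -0.70 as deposited, and by 0.33 and 0.27 after quantile normalization.

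Rps10, a small-subunit protein mutated in some Diamond-Blackfan anaemia, fell on both scales. Its log2 signal was 13.14, 13.18 and 13.36 in DN-CLIM P23, against 14.25, 14.24 and 14.16 in DN-CLIM P14. WT skin had 13.23, 13.20 and 13.15 at P23, against 14.24, 14.45 and 14.37 at P14. The groups were far apart. The log2 change was -0.99 in DN-CLIM and -1.16 in WT (SE 0.13 each, adjusted p = 1.24e-06 and 1.34e-07 in limma), and -0.23 and -0.40 after quantile normalization.

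Rps19, the main Diamond-Blackfan anaemia gene, passed in DN-CLIM. Its log2 signal was 12.93, 12.63 and 13.02 in DN-CLIM P23, against 11.91, 11.99 and 12.10 in DN-CLIM P14. In WT the signal was 12.03, 12.30 and 13.15 at P23, against 12.34, 12.49 and 12.18 at P14, and these overlap. The log2 difference was 0.86 in DN-CLIM (SE 0.24, adjusted p = 0.00472 in limma) and 0.16 in WT (SE 0.24, adjusted p = 0.608). After quantile normalization it was 1.24 (adjusted p = 0.000587) and 0.49 (adjusted p = 0.132). The difference between the genotypes' changes, 0.71 (SE 0.34), had adjusted p = 0.969, so it is not shown to differ. The remaining small-subunit falls went mostly the way of Rplp0. The probe set annotated to Rps24 changed by -1.23 in DN-CLIM and -1.17 in WT as deposited, and by -0.01 and -0.04 after quantile normalization. It was designed from the same sequence record as an Rpl7 probe set and has the suffix _r, and the other Rps24 probe set was below the filter, so which gene it reports is uncertain. Rps3, which lies where the messenger enters the ribosome, changed by -1.18 and -1.14 as deposited, and by -0.40 and -0.28 after quantile normalization, where DN-CLIM alone passed. Rps18 changed by -1.05 and -1.03, and Rps3a1 by -0.88 and -0.90, and neither passed after quantile normalization. Rps27, a zinc finger protein, passed on neither scale, with deposited differences of -0.10 in DN-CLIM and 0.07 in WT (adjusted p = 0.519 and 0.641 in limma).

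**Figure D4:**
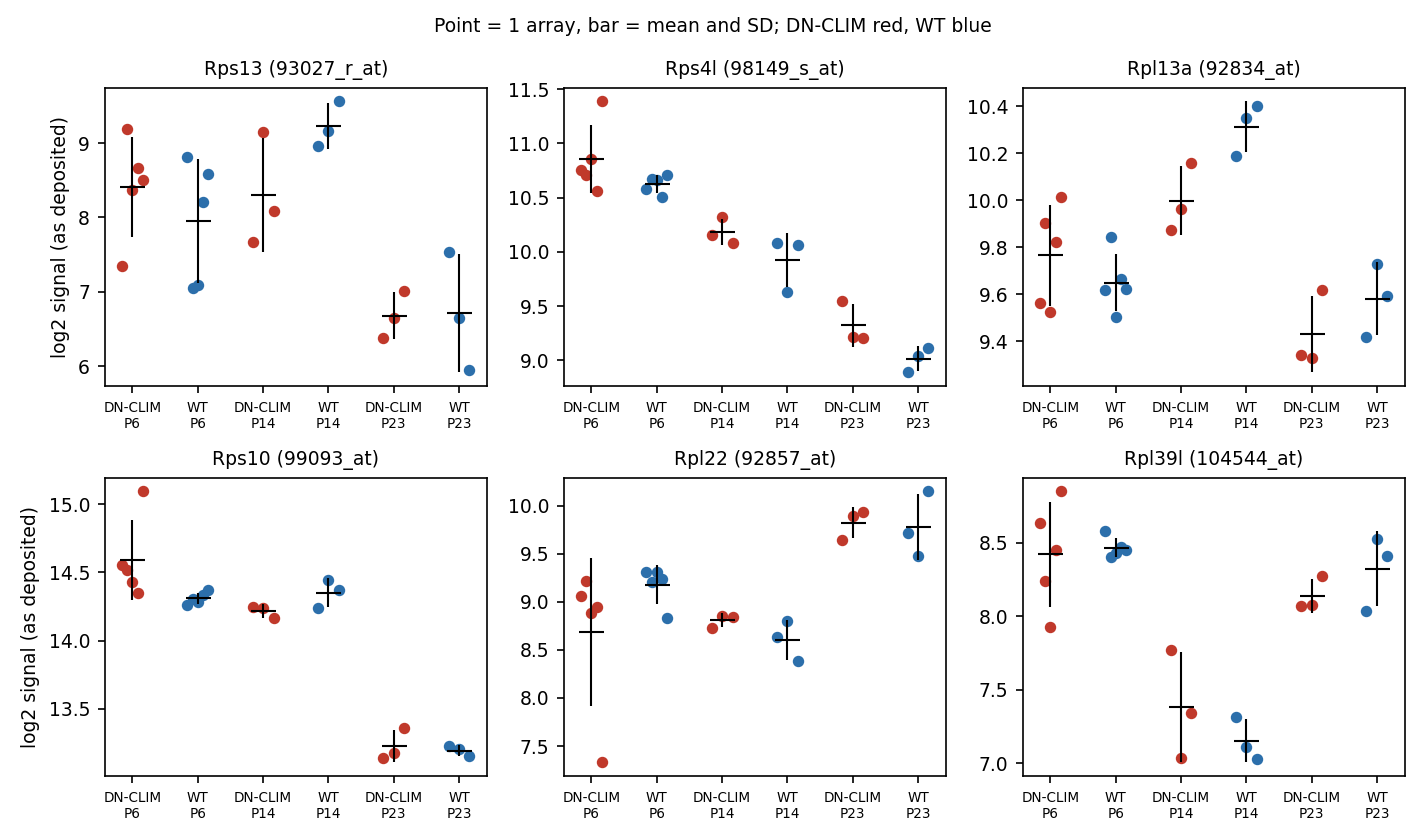
Log2 signal as deposited (y axis) of 6 members on each array, by group (x axis), with the group mean and SD; DN-CLIM red, WT blue. The means of Rps13, Rps4l, Rpl13a and Rps10 are lowest at P23, that of Rpl22 is highest there, and that of Rpl39l is lowest at P14. For Rpl13a in both genotypes and Rps13 in WT, the P23 arrays overlap those of P6.

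Between P6 and P14 fewer members moved. In DN-CLIM 8 fell and 1 rose, against 14.7% and 12.1% of all tested. In WT 2 fell and 3 rose, against 11.3% and 9.43%. After quantile normalization 10 fell and 1 rose in DN-CLIM (14.9% and 12.2% of all tested), and 6 fell and 2 rose in WT (11.1% and 9.77%). The median log2 change as deposited was -0.10 in DN-CLIM and 0.02 in WT. Without DN-CLIM P14 replicate 3 the DN-CLIM count was 5, and without WT P6 replicate 2 or 3 or WT P14 replicate 1 or 3 the WT count was 3. Rpl39l and Rps4l fell in both genotypes. Rps4l changed by -0.67 in DN-CLIM and -0.70 in WT (SE 0.15 each, adjusted p = 0.00188 and 0.00141 in limma).

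The other calls from P6 to P14 on the deposited scale were in 1 genotype each. In WT, Rpl13a rose by 0.66 (SE 0.12, adjusted p = 0.000437 in limma), and Rps13 by 1.28 and Rpl7 by 0.24, with adjusted p = 0.0421 and 0.0381. The Rpl7 call was lost after quantile normalization (0.09, adjusted p = 0.375), and it was lost without any one of WT P6 replicates 1 to 3 or of the 3 WT P14 arrays (adjusted p from 0.0531 to 0.153). The Rps13 call was lost without WT P6 replicate 2 or 3, any WT P14 array or DN-CLIM P23 replicate 2 (0.05 to 0.16). In DN-CLIM, the 2 Rps28 probe sets changed by -0.47 and -0.41, Rpl7a by -0.44, Rps10 by -0.37, Rpl10a by -0.34 and Rps18, a protein of the small subunit's head, by -0.31. Rps29, a small zinc-binding protein, rose by 0.55. After quantile normalization the Rpl10a call was lost (-0.22, adjusted p = 0.0875), and both Rps28 probe sets (-0.27 and -0.56, adjusted p = 0.0108 and 0.000997) and Rps18 (-0.21, adjusted p = 0.00373) fell in WT too. Rplp0 then fell in both genotypes, by 0.26 in DN-CLIM and 0.22 in WT. Without DN-CLIM P6 replicate 5 the Rps10 change in DN-CLIM was -0.24 (adjusted p = 0.0146), on the deposited scale as all values without an array are. The Rps10 and Rps18 calls were lost without DN-CLIM P14 replicate 2 or 3. The call of the Rps28 probe set at -0.41 was lost without DN-CLIM P6 replicate 1 or 5 or DN-CLIM P14 replicate 1 or 3, and that of Rps29 without DN-CLIM P6 replicate 3 or 5 or DN-CLIM P14 replicate 2 or 3. The difference between the genotypes in these changes passed for 0 of 28 members, against 0.0161% of all tested (limma). At an unadjusted p under 0.05 it was 6 of 28, beside 6.7% of all tested, and after quantile normalization 2 of 28, beside 6.15%.

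From P6 to P23, 20 members fell and 1 rose in DN-CLIM, against 28.2% and 26.7% of all tested. In WT 21 fell and 0 rose, against 28.3% and 25.7%. The median log2 change was -0.98 in DN-CLIM and -0.80 in WT as deposited, and -0.29 and -0.19 after quantile normalization. After quantile normalization 15 fell and 2 rose in DN-CLIM (29.8% and 25.2% of all tested), and 13 fell and 0 rose in WT (29.7% and 25%). Called the same way on both scales were 14 that fell and 1 that rose (Rpl22) in DN-CLIM, and 13 that fell in WT. Again the share of all tested probe sets called so was not counted. The Rpl22 rise in DN-CLIM was 1.14 as deposited, and 0.80 without DN-CLIM P6 replicate 5 (adjusted p = 0.000129 in limma). Rps4l changed most among those that held on both scales in WT, by -1.61 (SE 0.15, adjusted p = 4.94e-09 in limma), and by -1.53 in DN-CLIM (SE 0.15, adjusted p = 1.04e-08). These comparisons share their P6 or P23 arrays with the ones above.

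No ribosomal protein probe set passed the test between the genotypes at any age. At P6 the count was 0 of 28, against 0.0322% of all tested, with 4 at an unadjusted p under 0.05, beside 8.18% of all tested (limma). At P14 it was 0, against 0.0644%, with 1 at an unadjusted p under 0.05, beside 6.26%. At P23 it was 0, against 0.161%, with 0 at an unadjusted p under 0.05, beside 4.57%. Averaged over the 3 ages it was 0, against 0.177%, with 1 at an unadjusted p under 0.05, beside 7.02%. After quantile normalization the count was 0 at P6, P14, P23 and on average too, against 0.0322%, 0.0805%, 0.274% and 0.242%. At an unadjusted p under 0.05 it was then 2, 1, 4 and 1 of the 28, beside 7.42%, 6.39%, 5.86% and 7.31% of all tested. As deposited the median log2 difference, DN-CLIM minus WT, was 0.11 for P6, -0.08 for P14 and -0.05 for P23, and it was 0.02, -0.01 and -0.02 after quantile normalization.

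At P6, 22 of the 28 were higher in DN-CLIM, as were 25 of the 33 shared probe sets, against 3011 of all 6211. After quantile normalization these were 18 of the 28 and 20 of the 33. The deposited P6 difference had a median of 0.18 for the 12 members with a mean log2 signal of 14 or more. For 21 other probe sets as bright it was 0.12. As deposited, 18 of the 28 were lower in DN-CLIM at P14 and at P23, as were 25 and 28 of the 33. After quantile normalization 17 and 15 of the 28, and 18 and 24 of the 33, were lower at those ages. Without DN-CLIM P6 replicate 5 the median P6 difference of the 28 was 0.11. The smallest p at P6 was that of an Rps28 probe set, with log2 signals of 14.51, 14.36, 14.38, 14.28 and 14.50 in DN-CLIM, against 14.17, 14.07, 14.10, 14.16 and 14.22 in WT. The genotypes did not overlap there. The difference was 0.26 (SE 0.08, adjusted p = 0.344 in limma), and 0.15 after quantile normalization. Rps18 differed by 0.26 and Rps10 by 0.28 (adjusted p = 0.382 and 0.534). Without DN-CLIM P6 replicate 5 these differences were 0.24 for the Rps28 probe set, 0.20 for Rps18 and 0.15 for Rps10 (adjusted p = 0.347, 0.41 and 0.47).

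At P14 the smallest p was that of Rpl13a, which differed by -0.31 (SE 0.14, adjusted p = 0.726 in limma), and at P23 that of Rps7, a small-subunit protein that also binds Mdm2, which differed by -0.24 (SE 0.12, adjusted p = 0.999). Rps4l was higher in DN-CLIM by 0.23 for P6, 0.26 for P14 and 0.31 for P23, and by 0.27 on average (SE 0.09, adjusted p = 0.419). Without DN-CLIM P6 replicate 5 the Rps4l difference was 0.10 for P6 and 0.22 on average (adjusted p = 0.827 and 0.222). The genotypes did not overlap for 1 member of 28 at P6, for 5 at P14 and for 6 at P23, beside 0.95%, 15.2% and 14.9% of all tested. None of the members was called, where 0.0322%, 0.0644% and 0.161% of all tested were called. The change of the genotype difference from P14 to P23 passed for 0 of 28, against 0% of all tested, and that from P6 to P23 for 0, against 0.0161% (limma). At an unadjusted p under 0.05 these were 0 and 4, beside 5.1% and 4.88% of all tested.

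**Figure D5:**
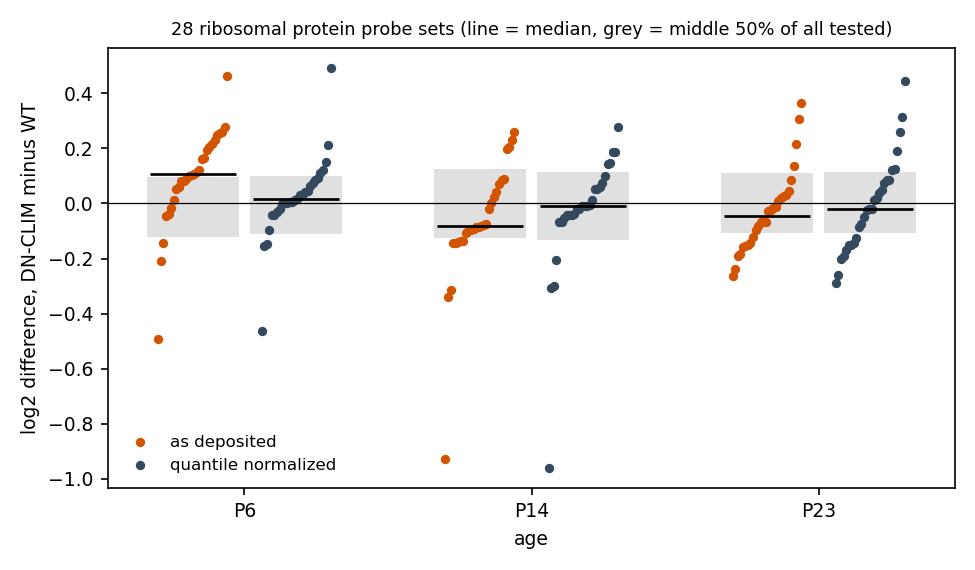
Log2 difference, DN-CLIM minus WT (y axis), of the 28 tested probe sets at each age (x axis), as deposited (orange) and after quantile normalization (dark), with the members' median as a line and the middle 50% of all tested probe sets in grey. The medians lie between -0.08 and 0.11, and no point passed the test.

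The remaining 20 probe sets were below the filter, with a mean log2 signal of at most 7.50, and were not tested in this fit. They leave 8 genes without a tested probe set: Rpl32, Rpl35a, Rpl38, Rpl39, Rps14, Rps15, Rps20 and Rps27l. Rpl38 is needed for the mouse axial skeleton, and Rps20 is one of the dark skin genes, so neither could be followed here. Rps6, the S6 kinase substrate, and Rplp1, Rplp2, Rpl5 and Rpl11 had no single-gene probe set and were not analysed here.

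Other genes of protein synthesis gave a mixed picture at P23. These lists may be read against the 27% or so of all tested probe sets that moved in each direction. Of 41 tested ribosome assembly genes, 21 fell and 2 rose in DN-CLIM and 20 fell and 1 rose in WT from P14 to P23. After quantile normalization 22 fell and 2 rose in DN-CLIM and 21 fell and 1 rose in WT, so the counts differed by at most 1 between the scales. Nop56, of the box C/D particle, changed by -1.30 in WT, and nucleolin (Ncl) by -1.21 in DN-CLIM and -1.05 in WT. Of 31 translation factors 14 fell and 9 rose in DN-CLIM, and 14 fell and 8 rose in WT. Gspt1, a termination factor, changed by -1.81 in WT, and Eef1a2, the elongation factor of muscle and neurons, by 2.09. After quantile normalization 13 factors fell and 8 rose in DN-CLIM, and 12 fell and 7 rose in WT. Of 52 mitochondrial ribosomal protein genes, 14 fell and 6 rose in DN-CLIM, and 14 fell and 3 rose in WT, and after quantile normalization 18 fell and 3 rose in DN-CLIM, and 17 fell and 3 rose in WT.

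Of 11 other genes with TOP messengers, 6 fell and 1 rose in DN-CLIM, and 6 fell and 0 rose in WT as deposited. After quantile normalization 4 fell and 3 rose in DN-CLIM, with a median of 0.11, and 3 fell and 2 rose in WT, with a median of -0.16. Nucleophosmin (Npm1), also on the ribosome assembly list, changed by -1.34 in DN-CLIM and -1.14 in WT, and still by -1.24 and -1.0 after quantile normalization. Tpt1 changed by -1.12 and -1.15, but by 0.15 in each genotype after quantile normalization. Between the genotypes, none of these 4 lists had a gene past the threshold at P6, P14 or P23.

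Markers of other cells moved with the same ages. From P14 to P23 all 18 hair shaft genes fell in both genotypes, and of 17 proliferation genes 15 fell in DN-CLIM and 12 in WT. Of 19 skeletal muscle genes 15 rose in DN-CLIM and 16 in WT while 3 fell in each, of 14 dermal fibroblast genes 12 rose in DN-CLIM and 13 in WT, and of 12 macrophage and immune genes 11 rose in DN-CLIM and 12 in WT. After quantile normalization each of these counts was within 1. The log2 of summed proliferation signal was 12.76 to 12.95 in DN-CLIM P23 and 12.78 to 13.08 in WT P23, against 13.85 to 14.00 in DN-CLIM P14 and 13.83 to 13.91 in WT P14. That of muscle was 17.07 to 17.18 in DN-CLIM P23 and 17.09 to 17.39 in WT P23, against 15.39 to 15.90 in DN-CLIM P14 and 15.67 to 15.86 in WT P14. Their part in the ribosomal protein values was not tested.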

How the data were processed

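Back skin RNA was purified (TRIzol, then RNeasy) and biotin-labelled, per the labels' protocols. The deposited intensity values are MAS5 signals (software version not given), per the submitters' processing notes. The 2% trimmed mean of each array lay between 500.25 and 500.34. The 66 control probe sets were left out, and 10833 of the rest had 1 gene, 396 several and 1193 none. Symbols were checked through Entrez identifiers for 10817, and 0 changed.

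Log2 of the deposited signals was fitted with limma 3.58.1 in R 4.3.3, with 1 mean per group over all 22 arrays and eBayes with a variance trend. The Benjamini-Hochberg adjustment ran over 6211 probe sets, those at or above the median of the mean signals, with a threshold of 0.05. The fit was tested on simulated data. Alternatives were quantile normalization, median centring, no filter, an offset of 50, the replicate number as a block, a split of the P6 arrays, array weights, no variance trend, 1 probe set per gene, only the groups compared and each array left out. Cyclic loess was added after seeing the data.

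Named members were up to 8 rises and 8 falls past the threshold per contrast, otherwise the 3 smallest p, plus genes fixed by role. Of these the text names a selection. The members and lists were chosen with earlier results of these data known. Figures were drawn with matplotlib 3.10.9 in Python 3.11.15. The number of arrays limits the precision.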

Additional observations from a re-analysis of the deposited data

Results flagged for a closer look

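Each tested probe set, and the members' median, was screened within each P6 group. Among these 58 sets of values, 4 had one array far from the rest, where chance gives about 1 in 20. The P14 and P23 groups, with 3 arrays each, were too small to screen. In DN-CLIM P6 replicate 5, Rpl22 had a log2 signal of 7.33, the lowest of its group, with the nearest array at 8.89. In the same array Rps3 was lowest at 13.85 (nearest 14.59) and Rps10 highest at 15.10 (nearest 14.55). In WT P6 replicate 5, Rpl22 was lowest at 8.83 (nearest 9.20). DN-CLIM P6 replicate 5 is also the array that correlates least with its group. It had the highest log2 of the 3' over the 5' control of all 22 arrays, at 0.56 for actin and 0.28 for Gapdh. The cause was not tested. Without this array the Rpl22 values that use it moved. The change in DN-CLIM from P6 to P23 went from 1.14 to 0.80, and that from P6 to P14 from 0.12 to -0.22. The genotype difference at P6 went from -0.49 to -0.15. The Rpl22 change from P14 to P23 uses no P6 array, so its size of 1.01 in DN-CLIM and 1.18 in WT could not move. Only its adjusted p did, to 1.73e-05 and 2.61e-06 in limma.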

How the results depend on the processing

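The counts of members past the threshold were 0 under every alternative run in the genotype comparisons. They were also 0 in the changes of the genotype difference between ages. From P14 to P23 the count of 24 in each genotype was 13 in DN-CLIM and 13 in WT after quantile normalization, and from P6 to P23 in WT the count of 21 was 13. From P6 to P14 in WT the count of 5 was 8 after quantile normalization, 3 with no filter, 10 with the replicate block and 8 with array weights. In DN-CLIM the count of 9 was 5 with cyclic loess. Leaving out each array in turn gave 22 to 25 from P14 to P23 in both genotypes, 20 to 22 in DN-CLIM and 18 to 22 in WT from P6 to P23, and 5 to 11 in DN-CLIM and 3 to 7 in WT from P6 to P14. Rplp0 from P14 to P23 turned to 0.0541 in DN-CLIM and 0.0348 in WT after quantile normalization, neither past the threshold. With cyclic loess the median change from P14 to P23 was -0.35 in DN-CLIM and -0.36 in WT, between the deposited and quantile values. The cause of these shifts was not tested. Same-numbered arrays of the 2 genotypes correlated at -0.05 to 0.25 once group means were removed. At P23 these values were 0.136, 0.056 and 0.249, each above the highest with another number (0.051, 0.029 and -0.1). At P6 and P14 some lay above and some below. Such values cannot settle whether the numbers pair the arrays, and the main fit did not pair them. The fit on the groups compared alone was not run for the average over ages, which uses all groups.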
